A study of Mus musculus with 4 samples.

Results

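The genes of hepatic cholesterol synthesis, uptake and export were followed in the livers of 4 wild-type mouse samples labelled ACLF (acute-on-chronic liver failure), a sudden loss of function in a liver that is already chronically diseased. They are the 30 rows of the deposited table, out of 21959, whose symbol stands on a list of sterol genes chosen by what their products do. Of them 4 encode regulators of sterol sensing, 6 act from acetyl-CoA to the isoprenoids, 11 act from squalene to cholesterol, 6 serve uptake, transfer and esterification, and 3 serve export. All 30 had enough counts to be tested. All 4 livers came from wild-type animals with ACLF. The saline group (2 livers) received saline and the baicalein group (2 livers) received baicalein, a plant flavone from Chinese skullcap root. The labels give no strain, sex, age, dose, way of inducing the disease or time of collection, and healthy liver was not analysed here. Nor do they say whether separate animals were used, and the p-values then reflect only how far these particular samples spread, part of which may be technical.

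Cholesterol is made in the cytosol and the endoplasmic reticulum from acetyl-CoA by way of mevalonate, farnesyl diphosphate and squalene. The transcription factor SREBP2 switches on the genes of this route. It is held in the endoplasmic reticulum by its escort SCAP and the INSIG proteins when sterols are plentiful, and moves on to be cleaved when sterols are scarce. The nuclear receptor LXR senses oxidised sterols and switches on genes of sterol export. The liver is a main site of cholesterol synthesis and the organ that removes cholesterol from the body in bile.

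Total counts ran from 13976440 to 18731616 per liver, and the 30 genes took between 0.398% and 0.461% of them. Counts are given below as CPM, a level scaled to the library total after TMM normalisation, and differences as the log2 fold change of baicalein over saline with its standard error (SE). Several things other than the treatment label separated the livers. Of 6 hepatocyte markers all were expressed, with a summed level of 67116 to 69507 CPM in saline livers and 91217 to 106758 CPM in baicalein livers. Alb made up most of the sum (means of 54510 CPM with saline and 81019 CPM with baicalein). Of the 6, Alb and Cps1 were higher with baicalein. The other 4 were not called, with log2 fold changes of 0.32 (Ahsg), 0.07 (Asgr1), 0.03 (Hnf4a) and -0.07 (Tdo2). Transcripts of 4 Y-linked genes summed to 820 and 836 counts in the saline livers and to 2 and 1 in the baicalein livers, so treatment and this difference by sex chromosome cannot be told apart in any comparison here. Of 11 circadian clock genes 8 were higher and 3 (Arntl, Clock and Npas2) lower with baicalein. Over all tested genes 7.65% were called higher and 7.90% lower. The clock list was added after the values were seen, so its share of calls is no measure of the clock. Its summed levels, which mix both directions, were 357 and 396 CPM in saline livers against 768 and 697 CPM in baicalein livers. All 5 Kupffer cell markers were higher (297 to 339 against 521 to 604 CPM summed), as were 3 of 4 stellate cell markers and all 4 sinusoidal endothelial markers. The 3 stellate markers that were called (Lrat, Dcn and Colec11) summed to 99.6 and 93.5 CPM with saline and 264 and 240 CPM with baicalein. The fourth, Des, which muscle also expresses, was at 151 CPM in saline 1 and 101 CPM in baicalein 2 against 2.63 CPM in saline 2 and 6.26 CPM in baicalein 1. Summed endothelial levels were 139 and 149 against 209 and 228 CPM. Of 4 neutrophil markers 3 could be tested and none of these was called, at summed levels of 1.90 to 6.12 CPM. Skeletal muscle transcripts (8 genes) summed to 5094 CPM in saline 1 and 1602 CPM in baicalein 2, against 1.24 CPM in saline 2 and 0.619 CPM in baicalein 1. Bile duct markers (4 genes) summed to 105 CPM in baicalein 2 and to 8.94 to 20.4 CPM in the other livers, and 1 of them was called lower. The part that clock genes, other cell types or muscle play in the sterol results was not tested.

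Of the 30 sterol genes, 6 were higher with baicalein and 1 was lower at an adjusted p below 0.05 (edgeR quasi-likelihood test, adjusted over all 12657 genes tested). Over all tested genes 7.65% were called higher and 7.90% lower, 15.5% in all. The 6 that rose were Insig1, Sqle, Mylip, Npc2, Abcg5 and Abcg8, and the 1 that fell was Insig2. The median log2 fold change of the 30 genes was 0.03, beside 0.01 for all tested genes. In 12 genes both baicalein livers lay above both saline livers and in 4 both lay below, where the background over all tested genes is 29.7% and 29.5% (59.2% in all). An exact permutation test of a single gene cannot go below 0.333 with 2 livers against 2, so every call rests on the spread shared across genes. In these whole-tissue samples fewer cells of a type and less RNA per cell cannot be told apart.

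**Figure D1:**
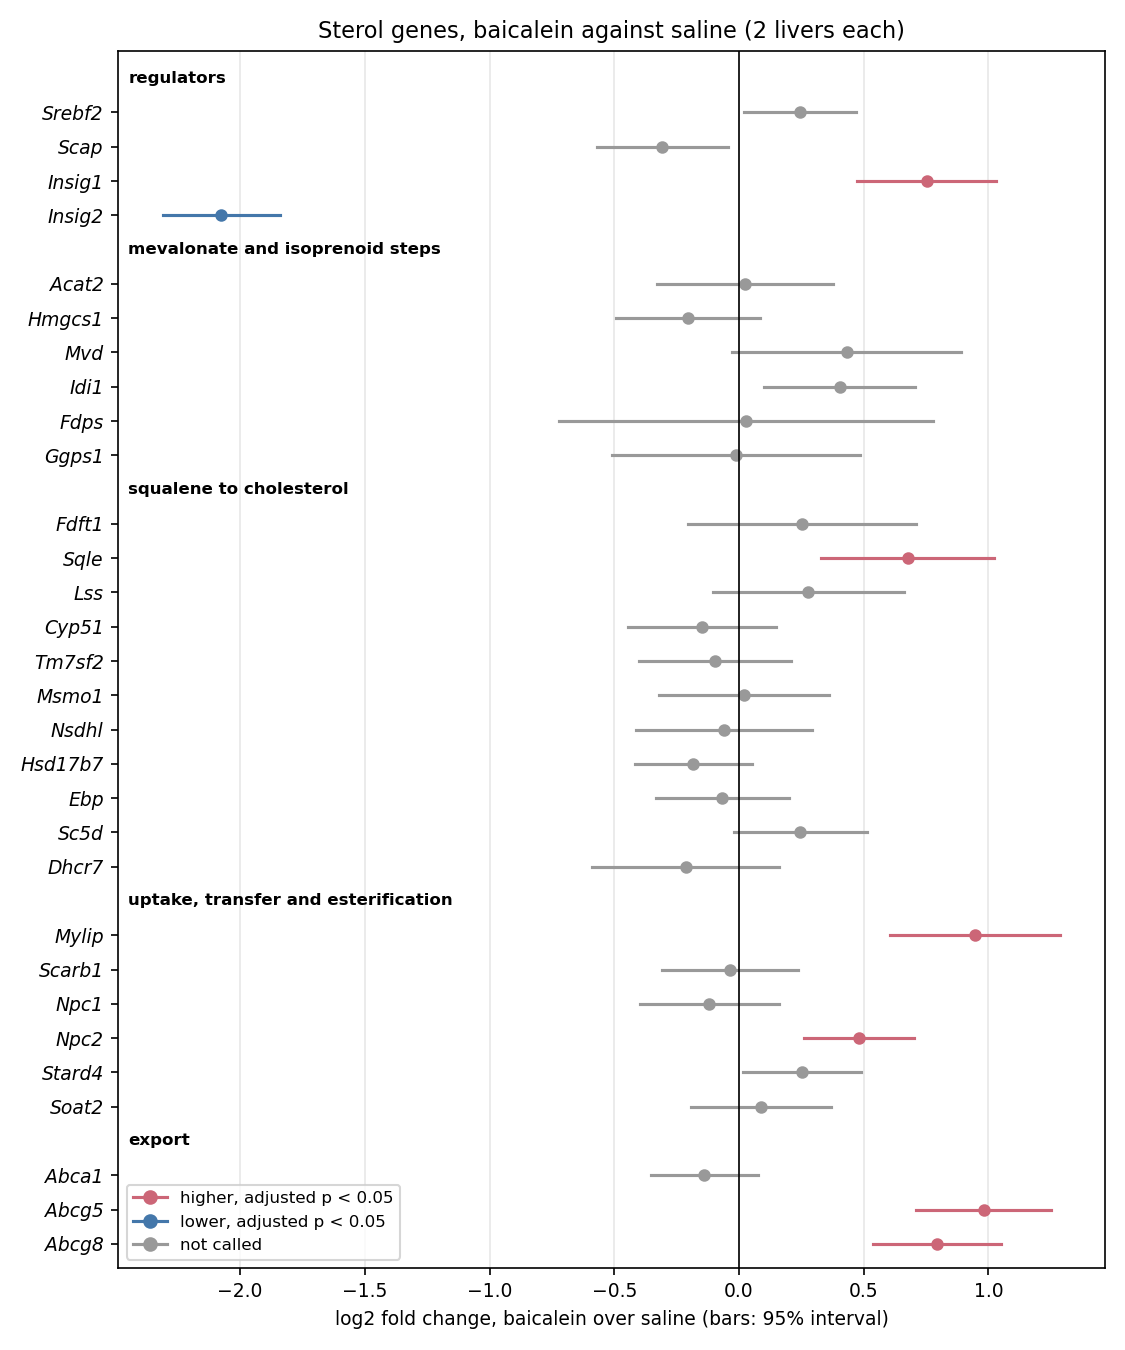
Log2 fold change of each of the 30 sterol genes, baicalein over saline (x axis, no unit), grouped by role (y axis); points are the fitted values and bars their 95% intervals, coloured by whether the adjusted p was below 0.05. Insig2 lies furthest to the lower side at -2.07, 6 genes were called higher, and 23 genes were not called. The intervals of the called genes are clear of 0, and so are those of Srebf2, Scap, Idi1 and Stard4, which were not called.

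Among the regulators, the pair of Insig genes moved in opposite directions. Insig1 and Insig2 encode closely related membrane proteins that bind SCAP and keep SREBP in the endoplasmic reticulum. Insig1 is itself a target of SREBP, and Insig2 has a transcript particular to liver that is known to be repressed by insulin. Insig2 (ENSMUSG00000003721, chromosome 1, 121232082 to 121260318 in the deposited table) was at 434 and 464 CPM in the saline livers and at 105 and 109 CPM in the baicalein livers. The groups did not overlap and each pair of replicates lay close together. It fell to a level 4.21-fold lower (log2 fold change -2.07, SE 0.10, adjusted p = 5.47e-06), and it was called in each fit with 1 liver left out (log2 fold change from -2.13 to -2.03). Insig1 (ENSMUSG00000045294, chromosome 5, 28276361 to 28283660) was at 326 and 329 CPM with saline and at 609 and 494 CPM with baicalein. Both baicalein livers were above both saline livers, baicalein 1 more so. Insig1 rose 1.68-fold (log2 fold change 0.75, SE 0.12, adjusted p = 0.00399). The call was lost without saline 1 (adjusted p = 0.0666) or saline 2 (adjusted p = 0.0812).

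Set on a scale per gene length (FPKM, a level), the order of the pair turned over between groups. The ratio of Insig1 to Insig2 was 0.843 in saline 1 and 0.796 in saline 2, so Insig2 was the more abundant transcript there. In baicalein 1 the ratio was 6.55 and in baicalein 2 it was 5.10. The sum of the pair was 222 and 236 FPKM with saline and 224 and 204 FPKM with baicalein, values that overlap between groups.

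**Figure D2:**
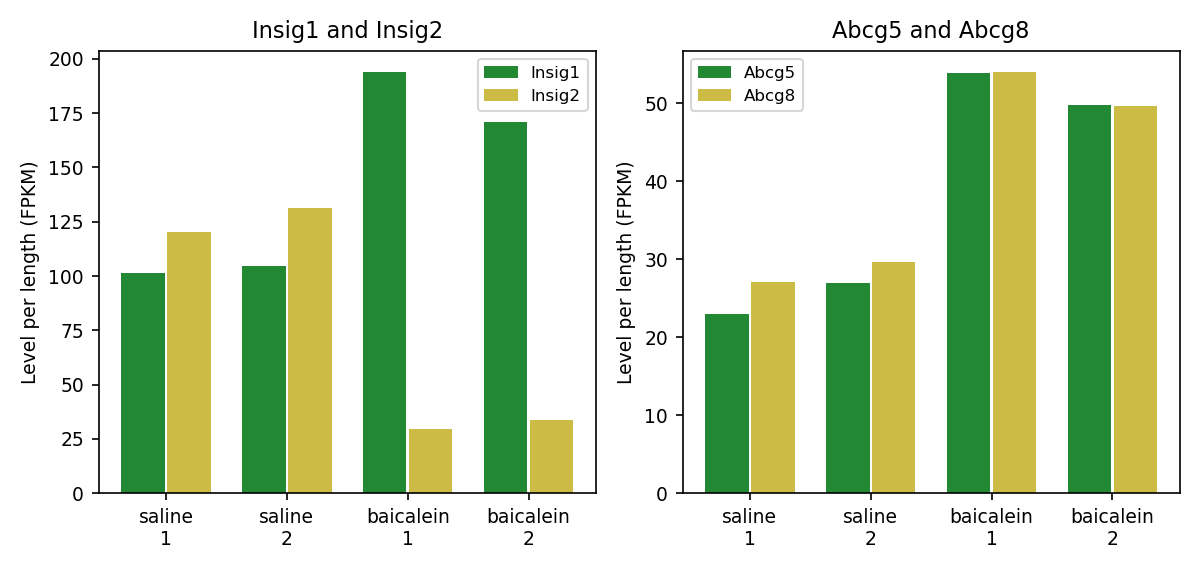
Level per gene length (FPKM, y axis from 0) in each of the 4 livers (x axis) for Insig1 and Insig2 on the left and for Abcg5 and Abcg8 on the right, 1 bar per gene and liver. Insig2 is the taller bar in both saline livers and Insig1 in both baicalein livers, while the bars of Abcg5 and Abcg8 stay close to each other in every liver and are taller with baicalein.

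The stretches before the start sites of this pair are shown because their transcripts went opposite ways. The sequences are RefSeq's, on GRCm38.p6, matched by symbol, and run 5′ to 3′ on the strand of the gene. Of 3 annotated starts of Insig2 the outermost was taken, and counts per gene do not tell which start was used. Each line holds the 250 bases before the start, Insig1 at chr5:28071162-28071411 on the plus strand and Insig2 at chr1:121332590-121332839 on the minus strand. Capitals mark matches to the CCAAT box (CCAAT on either strand), a motif bound by NF-Y, the common partner of SREBP, and to the E-box CACGTG.
Insig1: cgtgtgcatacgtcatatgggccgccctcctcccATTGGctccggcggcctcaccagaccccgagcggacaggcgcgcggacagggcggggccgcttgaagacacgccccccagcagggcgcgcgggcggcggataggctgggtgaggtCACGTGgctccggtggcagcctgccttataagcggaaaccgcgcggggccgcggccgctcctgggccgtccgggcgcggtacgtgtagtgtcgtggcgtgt
Insig2: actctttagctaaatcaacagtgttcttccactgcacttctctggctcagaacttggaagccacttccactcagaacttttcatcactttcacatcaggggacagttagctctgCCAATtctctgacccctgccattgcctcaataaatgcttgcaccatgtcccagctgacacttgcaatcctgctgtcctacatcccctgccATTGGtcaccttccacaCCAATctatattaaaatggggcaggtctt
The Insig1 stretch is rich in G and C and holds 1 CCAAT match, starting 216 bases before the start, and 1 E-box, starting 101 bases before it. The Insig2 stretch holds 3 CCAAT matches, at 136, 46 and 29 bases before the start, and no E-box. Windows of 300 bases around the start (250 before, 50 after) were found for 23 of the 30 genes. A CCAAT match lies in 20 of their 29 windows (37.4% of all 32851 windows hold 1) and an E-box in 7 of 29 (7.15% of all windows). A match is a description of letters and not of binding.

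The other regulators differed less. Srebf2, which encodes SREBP2, was at 71.1 and 65.9 CPM with saline and 85.1 and 77.4 CPM with baicalein (log2 fold change 0.25, 95% interval 0.02 to 0.47, adjusted p = 0.137). Scap was at 134 and 143 CPM with saline and 122 and 101 CPM with baicalein (log2 fold change -0.31, 95% interval -0.57 to -0.05, adjusted p = 0.111). In both genes the groups did not overlap, Srebf2 lying above and Scap below, and neither passed the threshold. The ratio of Srebf2 to Scap in FPKM was 0.552 and 0.478 in the saline livers and 0.722 and 0.792 in the baicalein livers.

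None of the 6 genes of the mevalonate and isoprenoid steps was called, and 1 of them had an unadjusted p below 0.05, beside 29.4% of all tested genes. The gene nearest to the threshold was Idi1, which isomerises isopentenyl diphosphate and was at 40.4 and 38.1 CPM with saline and 58.6 and 45.3 CPM with baicalein (log2 fold change 0.40, 95% interval 0.10 to 0.71, adjusted p = 0.0793). It was called without baicalein 2 (log2 fold change 0.58, adjusted p = 0.0210). Mvd, which decarboxylates mevalonate diphosphate, was at 14.4 and 11.9 CPM with saline and 20.8 and 14.7 CPM with baicalein (log2 fold change 0.43, 95% interval -0.03 to 0.89). The groups of Idi1 and of Mvd did not overlap, with baicalein above. Hmgcs1, the cytosolic HMG-CoA synthase, ran the other way, at 205 and 179 CPM with saline and 184 and 150 CPM with baicalein (log2 fold change -0.20, 95% interval -0.49 to 0.09), and its groups overlapped. Acat2, the cytosolic thiolase that joins acetyl-CoA units, gave a log2 fold change of 0.02 (95% interval -0.33 to 0.38). A close copy, Acat3, lies in the genome, and no source used here says how shared reads were assigned, which leaves the Acat2 value uncertain. Ggps1, which makes the geranylgeranyl group for protein prenylation, gave -0.01 (95% interval -0.51 to 0.48).

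Fdps, the farnesyl diphosphate synthase at the branch point of sterols and other isoprenoids, had 53, 56, 64 and 59 counts in saline 1, saline 2, baicalein 1 and baicalein 2. This was the lowest level per length of the 30 genes, at a mean of 0.861 FPKM. As deposited, 7512 bases of its span lie under a predicted gene on the same strand, Gm43738, listed at 0 counts in every liver. The handling of reads that fall in both genes is not given in sources used here, and the level is uncertain. Its log2 fold change was 0.03 (95% interval -0.72 to 0.78), the widest interval of the 30.

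Of the 11 genes from squalene to cholesterol, 1 was higher with baicalein (9.09%), none was lower and 10 were not called. The shares over all tested genes were 7.65% higher and 7.90% lower. Sqle, squalene epoxidase, catalyses a rate-controlling oxygenation of the route. It was at 68.5 and 61.6 CPM with saline and 118 and 89.6 CPM with baicalein, both baicalein livers above both saline livers. Sqle rose 1.60-fold (log2 fold change 0.68, SE 0.15, adjusted p = 0.0228). The call was lost without saline 1 (adjusted p = 0.121), saline 2 (0.193) or baicalein 1 (0.0689) and with limma-voom (0.0574).

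Its neighbours in the route showed no call. Fdft1, squalene synthase, was at 139 and 118 CPM with saline and 178 and 129 CPM with baicalein, with overlapping groups. The end of Fdft1 overlaps Ctsb, on the other strand, over 774 bases, and strand use in counting is not given in sources used here. Lss, which closes squalene epoxide to lanosterol, was at 47.6 and 46.6 CPM with saline and 66.1 and 48.2 CPM with baicalein (log2 fold change 0.28, 95% interval -0.10 to 0.66). Without baicalein 2 it was called (log2 fold change 0.49, adjusted p = 0.0307). Sc5d, lathosterol desaturase, had the highest count-based level of the 11 genes, at 590 and 592 CPM with saline and 767 and 634 CPM with baicalein (log2 fold change 0.25, 95% interval -0.02 to 0.51), and was likewise called without baicalein 2 (log2 fold change 0.38, adjusted p = 0.0335).

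The genes that trim lanosterol lay closer to 0. Cyp51, the lanosterol demethylase, was at 195 and 176 CPM with saline and 187 and 148 CPM with baicalein. Msmo1, the methyl sterol oxidase that follows, was at 163 and 149 CPM against 181 and 136 CPM. Nsdhl and Hsd17b7, which complete the demethylation, and Tm7sf2 and Ebp, a reductase and an isomerase of the ring double bonds, gave log2 fold changes between -0.18 (Hsd17b7) and -0.06 (Nsdhl). Hsd17b7 was the 1 gene of these whose baicalein livers (80.2 and 69.3 CPM) both lay below its saline livers (85.2 and 84.4 CPM), and it was not called (adjusted p = 0.282). Dhcr7, the last reductase of the route, was at 136 and 118 CPM with saline and 125 and 94.2 CPM with baicalein (log2 fold change -0.21, 95% interval -0.59 to 0.16).

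The enzymes of the 11-gene stretch shared a difference within the baicalein group. All 11 were higher in baicalein 1 than in baicalein 2, with a median log2 ratio of 0.40, and 10 of 11 were higher in saline 1 than in saline 2, with a median log2 ratio of 0.15. Over the 30 sterol genes 28 were higher in baicalein 1 (median log2 ratio 0.28), beside 53.1% of all tested genes (median 0.02). Between the saline livers 17 of 30 were higher in saline 1, beside 50.6% of all tested genes. Baicalein 2 is the baicalein liver with muscle and bile duct transcripts (1602 and 105 CPM). Muscle transcripts were higher still in saline 1 (5094 CPM), which was the higher saline liver in 10 of the 11 genes. The part of these transcripts in the differences within groups was not tested. The median log2 fold change of the 30 genes was 0.22 without baicalein 2 and -0.11 without baicalein 1, so the side of 0 on which the list as a whole lay depended on the baicalein liver.

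**Figure D3:**
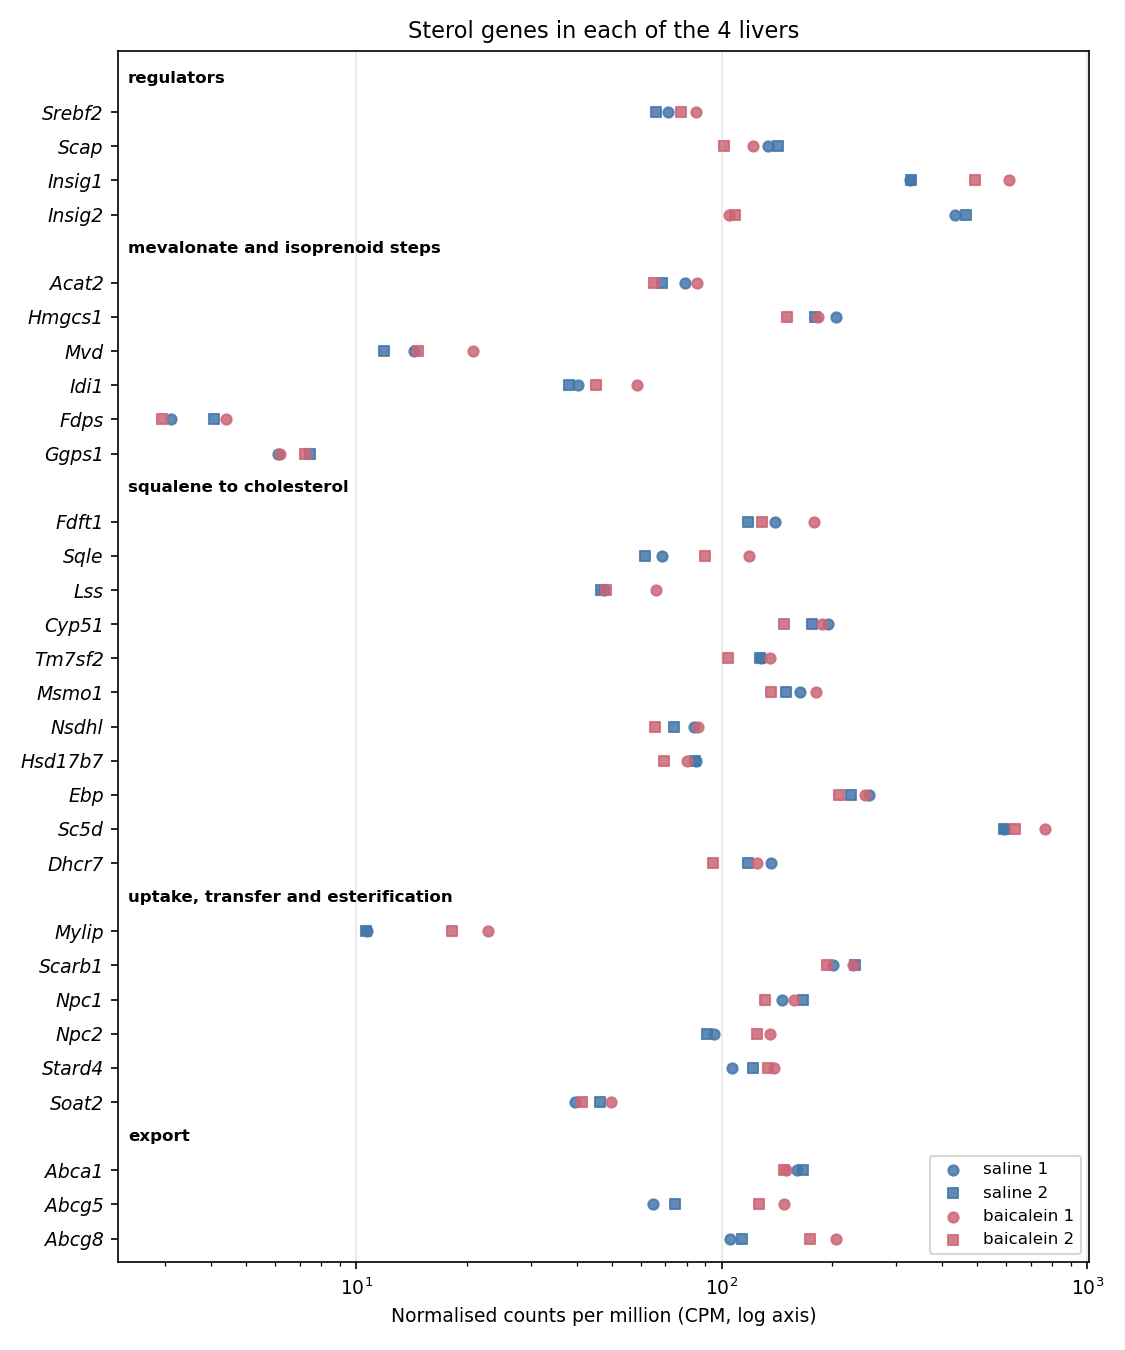
Normalised count level (CPM) on a log axis (x axis) for each of the 30 sterol genes by role (y axis), with 1 point per liver, blue for saline and red for baicalein, circles for replicate 1 and squares for replicate 2. Insig2 shows the widest gap between colours, and in the squalene to cholesterol block the red circle lies to the right of the red square in all 11 genes.

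A sterol element, the letters TCACNCCA on either strand, was searched in the same windows, since SREBP binds such elements. It was found in 3 of the 29 windows, those of Srebf2, Hmgcs1 and Msmo1, and in 4.36% of all windows. None of the 6 called genes with a window held a match, which says only that these letters are not in these bases. The matches of Srebf2 (chr15:82147061-82147160, plus strand) and Hmgcs1 (chr13:119690168-119690267, plus strand) are shown with their surroundings (100 bases each, match in capitals), because both genes are textbook SREBP targets and neither was called.
Srebf2: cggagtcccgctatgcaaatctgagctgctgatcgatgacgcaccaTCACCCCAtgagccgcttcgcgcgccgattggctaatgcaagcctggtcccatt
Hmgcs1: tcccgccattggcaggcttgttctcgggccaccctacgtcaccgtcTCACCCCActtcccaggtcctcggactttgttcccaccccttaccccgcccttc
The match of Srebf2 begins 162 bases before the start and that of Hmgcs1 137 bases before it.

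In uptake, transfer and esterification, 2 of 6 genes rose and none fell, beside 7.65% called higher and 7.90% lower of all tested genes. Mylip encodes a ubiquitin ligase, also called IDOL, that marks lipoprotein receptors for breakdown and is a target of LXR. It was at 10.7 and 10.6 CPM with saline and 22.9 and 18.3 CPM with baicalein, without overlap. Mylip rose 1.93-fold (log2 fold change 0.95, SE 0.15, adjusted p = 0.00362) and was called with each liver left out, with an adjusted p of up to 0.0487. Npc2, a lysosomal protein that hands cholesterol to NPC1, was at 95.4 and 91.0 CPM with saline and 135 and 125 CPM with baicalein. Npc2 rose 1.40-fold (log2 fold change 0.48, SE 0.10, adjusted p = 0.0115). It was not called without saline 1 (adjusted p = 0.0644), saline 2 (0.142) or baicalein 1 (0.0647). Kupffer cell markers, from lysosome-rich macrophages, summed to 297 and 339 CPM with saline and 521 and 604 CPM with baicalein beside it, and their part in the rise of Npc2 was not tested.

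The partner of Npc2 was not called. Npc1, the membrane protein that takes cholesterol out of the lysosome, was at 146 and 167 CPM with saline and 157 and 131 CPM with baicalein (log2 fold change -0.12, 95% interval -0.40 to 0.16). Scarb1, which takes up cholesteryl ester from high-density lipoprotein, was at 201 and 231 CPM against 228 and 194 CPM (log2 fold change -0.04, 95% interval -0.31 to 0.24). Soat2, the enzyme that esterifies cholesterol in hepatocytes, gave a log2 fold change of 0.09 (95% interval -0.19 to 0.37). The groups of these 3 genes overlapped. Stard4, a soluble sterol carrier, was at 107 and 122 CPM with saline and 139 and 133 CPM with baicalein, without overlap, and was not called (log2 fold change 0.25, 95% interval 0.02 to 0.49, adjusted p = 0.142).

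In export, the 2 genes of biliary sterol secretion rose together and the gene of export to lipoproteins was not called. Abcg5 and Abcg8 encode the partners of an obligate heterodimer in the canalicular membrane that pumps cholesterol and plant sterols into bile, and both are LXR targets. Abcg5 (ENSMUSG00000040505, chromosome 17, 84965662 to 84990439) was at 64.7 and 74.3 CPM with saline and 148 and 126 CPM with baicalein. Abcg8 (ENSMUSG00000024254, chromosome 17, 84983730 to 85007761) was at 106 and 113 CPM with saline and 206 and 174 CPM with baicalein. In both genes the groups were well apart. Abcg5 rose 1.97-fold (log2 fold change 0.98, SE 0.12, adjusted p = 9.43e-04) and Abcg8 1.73-fold (log2 fold change 0.79, SE 0.11, adjusted p = 0.00219). Both were called with each liver left out, at an adjusted p of up to 0.0137 for Abcg5 and 0.0293 for Abcg8. Per length the ratio of Abcg5 to Abcg8 was 0.847 and 0.906 in the saline livers and 0.997 and 1.00 in the baicalein livers.

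In the deposited table the pair overlap over 6710 bases on opposite strands, so reads from that stretch cannot be assigned without strand, and the values of each may hold reads of the other. Of 2 annotated RefSeq starts of Abcg8 the one furthest downstream was taken, and counts per gene do not tell which start was used. This start and that of Abcg5 face away from each other and are 109 bases apart. This stretch (chr17:84683012-84683120, GRCm38.p6, given on the plus strand, that of Abcg8) is shown because both genes that flank it rose. Capitals mark the letters AGATAA on either strand, a GATA box, searched after the sequence had been seen.
Abcg5 to Abcg8: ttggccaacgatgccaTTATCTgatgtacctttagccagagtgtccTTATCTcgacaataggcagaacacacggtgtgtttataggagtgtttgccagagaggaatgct
The stretch holds 2 such matches, the first bases lying 93 and 63 bases before the start of Abcg8. Of all windows 11.2% hold a match.

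Abca1, which loads cholesterol onto nascent high-density lipoprotein and is also an LXR target, was at 160 and 167 CPM with saline and 150 and 148 CPM with baicalein. Its baicalein livers lay below its saline livers by a small margin, and it was not called (log2 fold change -0.14, 95% interval -0.35 to 0.08, adjusted p = 0.375).

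Levels per length varied within each role. Averaged over the 4 livers, the highest of the 30 genes were Insig1 with 143 FPKM, Sc5d with 133 FPKM, Ebp with 101 FPKM and Insig2 with 78.7 FPKM. The other regulators, Scap (16.7 FPKM) and Srebf2 (10.4 FPKM), lay below the median. The median of the 30 genes was 21.5 FPKM, beside 3.31 FPKM for all tested genes. The lowest were Ggps1 (1.43 FPKM) and Fdps. Summed over the 11 genes from squalene to cholesterol, the level was 434 and 411 FPKM with saline and 497 and 433 FPKM with baicalein. The 3 export genes summed to 64.9 and 72.4 FPKM with saline and 122 and 115 FPKM with baicalein, so this role was the one in which the summed levels of the groups lay furthest apart in proportion.

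**Figure D4:**
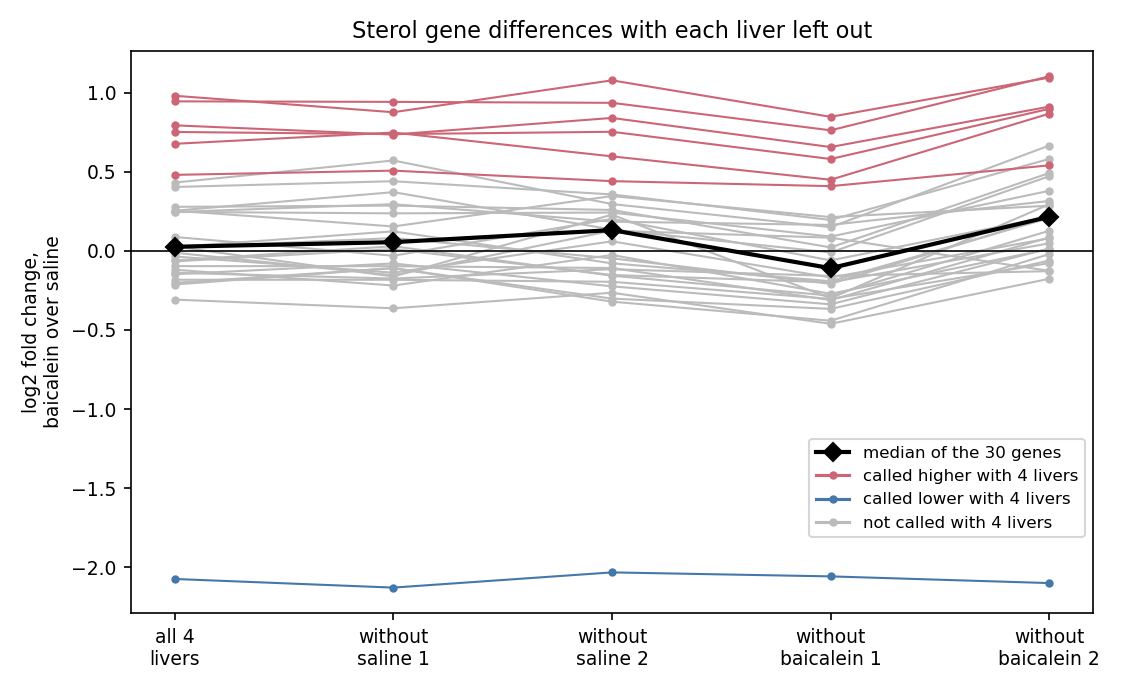
Log2 fold change, baicalein over saline (y axis, no unit), of each of the 30 sterol genes with all 4 livers and with each liver left out in turn (x axis); red and blue lines are genes called higher and lower with all 4 livers, grey lines genes not called, and black diamonds the median of the 30 genes. The coloured lines keep their side of 0 in all 5 fits, while the median moves from -0.11 without baicalein 1 to 0.22 without baicalein 2.

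Other genes of sterol handling were counted from 4 further lists (48 genes, 47 tested), of which 8 were higher and 3 lower. These are 17.0% and 6.38% of those tested, beside 7.65% and 7.90% of all tested genes. Among 13 other genes of synthesis and SREBP control, 4 rose, 1 fell and 8 were not called. Aacs, which makes acetoacetyl-CoA in the cytosol from a ketone body, rose from 24.1 and 20.2 CPM to 101 and 79.4 CPM (log2 fold change 2.02, SE 0.15, adjusted p = 3.33e-04). Rnf145, a sterol-responsive ubiquitin ligase of the endoplasmic reticulum, rose from 29.6 and 28.1 CPM to 51.8 and 47.5 CPM (log2 fold change 0.78, SE 0.10, adjusted p = 0.00103). Rnf139, another ubiquitin ligase of that membrane, fell from 30.6 and 32.5 CPM to 25.2 and 20.5 CPM (log2 fold change -0.47, SE 0.13, adjusted p = 0.0417), which was not called in 3 of the 4 fits with 1 liver left out, the exception being that without baicalein 1 (highest adjusted p 0.220).

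Of 17 tested genes of uptake and intracellular cholesterol, 2 rose and 1 fell, where 7.65% of all tested genes were called higher and 7.90% lower. Soat1, the esterifying enzyme of macrophages and other non-hepatocyte cells, rose from 7.82 and 7.80 CPM to 15.7 and 15.1 CPM (log2 fold change 0.98, SE 0.15, adjusted p = 0.00265), beside the higher Kupffer cell markers given above, whose part in it was not tested. Nceh1, a cholesteryl ester hydrolase, fell from 62.1 and 64.7 CPM to 42.7 and 51.1 CPM (log2 fold change -0.43, SE 0.11, adjusted p = 0.0271). Of the fits with 1 liver left out, Nceh1 was called in that without baicalein 2 alone (highest adjusted p 0.128). Of LXR and its other targets (7 genes), 2 rose and 1 fell. Srebf1, which encodes SREBP1, the regulator of fatty acid synthesis, rose from 178 and 145 CPM to 441 and 379 CPM (log2 fold change 1.34, SE 0.13, adjusted p = 3.83e-04). Lpcat3, which remodels phospholipids, fell from 132 and 130 CPM to 93.8 and 88.8 CPM (log2 fold change -0.52, SE 0.09, adjusted p = 0.00654), with an adjusted p of 0.0520 without saline 2. Smpdl3a, a secreted phosphodiesterase, was called higher with 4 livers (log2 fold change 0.33, SE 0.09, adjusted p = 0.0470) and in none of the 4 fits with 1 liver left out (adjusted p up to 0.249). The LXR genes themselves, Nr1h2 and Nr1h3, gave log2 fold changes of 0.00 and 0.06 and were not called. None of 10 genes that use isoprenoids for prenylation, dolichol or ubiquinone was called, and 3 of them had an unadjusted p below 0.05, beside 29.4% of all tested genes.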

How the data were processed

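RNA from 4 livers was sequenced. Per the labels' protocols a SMARTer kit for mRNA served for the libraries, and per the submitters' processing notes the build was mm10. The aligner, counter, annotation and use of strand were not given in sources used here. The authors deposited, per the file headers, a whole-number read count and an FPKM value for each gene and liver. For the 30 sterol genes the deposited FPKM equal count over length and library total to within 0.00387%. Gene positions are printed as the table gives them, and the table names no build.

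Genes with low counts were dropped (filterByExpr, 12657 genes kept). The rest were scaled by TMM and compared by the two-sided quasi-likelihood test of edgeR 4.0.16 (R 4.3.3), fitted robustly without covariates. Adjusted p-values follow Benjamini and Hochberg over every tested gene, with a threshold of 0.05. SE is the log2 fold change over the root of F, and intervals are 95%. The fit was tested on simulated data. Levels between genes were compared in FPKM, apart from Sc5d, whose rank among the 11 genes from squalene to cholesterol was given in CPM. Members, lists and the naming rule were chosen with earlier results of these data known. The rule covers all 30 genes and, from each further list, those past the threshold, up to 4 of smallest p. Some genes counted in those lists are not reported here. The rule asked for promoters of called genes with a sterol element, of which there were none, so the promoters printed were chosen after values were seen. The clock list was added after the values were seen. Alternatives were median-of-ratios (RLE) scaling, DESeq2 1.42.0, limma-voom (limma 3.58.1), testing without the filter, a minimum mean CPM of 1, a block by replicate number, and leaving out single livers.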

Additional observations from a re-analysis of the deposited data

How the results depend on the processing

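Insig2, Mylip, Abcg5 and Abcg8 kept their direction and call under all 11 alternatives, and Insig1, Sqle and Npc2 under those not named above as ending the call. Of the 11, the block by crosswise pairs was chosen after seeing the data and called more genes, so a call is easily kept there. With a liver left out, which leaves 1 liver in a group that is assumed to vary like the other group, 1056 to 1328 genes were called in place of 1968 (521 to 665 higher in place of 968, 535 to 663 lower in place of 1000). Of the sterol genes 4 to 10 were called in place of 7 (3 to 9 higher in place of 6), and of the other pathway genes 5 to 10 in place of 11. The median log2 fold change of the sterol genes ran from -0.11 to 0.22 in these fits. Genes near 0 changed sign in them, with log2 fold changes of -0.19 to 0.21 for Acat2, -0.30 to 0.29 for Fdps, -0.15 to 0.13 for Ggps1, -0.0099 to 0.47 for Fdft1, -0.34 to 0.0146 for Cyp51, -0.31 to 0.0846 for Tm7sf2, -0.21 to 0.21 for Msmo1, -0.28 to 0.13 for Nsdhl, -0.20 to 0.0478 for Ebp, -0.17 to 0.0789 for Scarb1, -0.27 to 0.0117 for Npc1 and -0.0606 to 0.22 for Soat2. With limma-voom 632 genes were called higher and 7 other pathway genes in all, and Fdps (-0.0151) and Ggps1 (0.0213) changed sign. Rnf139 (adjusted p = 0.0793), Nceh1 (0.0746) and Smpdl3a (0.0873) were not called with limma-voom. DESeq2 did not call Rnf139 (adjusted p = 0.0882) or Smpdl3a (0.0940), and edgeR without the filter did not call Smpdl3a (0.0512). With the replicate number as a block 1132 genes were called, 531 higher and 601 lower, and the 7 sterol genes were called as before. Of the other pathway genes 8 were called in place of 11, and the calls of Rnf139 (adjusted p = 0.103), Nceh1 (0.0562) and Smpdl3a (0.114, edgeR) were lost. Same-numbered livers deviated in opposite directions (correlation -0.785 across genes) and crosswise livers in the same direction (0.785). With 2 livers per group these values mirror each other by construction, so they cannot tell whether the numbers pair the livers. With crosswise pairs as a block, an alternative chosen after seeing the data, 3498 genes were called, 1809 higher and 1689 lower, with 2 sterol genes lower in place of 1 and 17 other pathway genes in all. The cause of these changes was not tested. At totals of 13976440 to 18731616, 3 counts are 0.160 to 0.215 CPM, and Fdps rests on 53 to 64 counts per liver.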
